A study of Mus musculus with 6 samples.

Results

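The cytosolic DNA-sensing and STING pathway was followed here through 8 genes of the deposited count table, out of 23282 gene rows. They were found by an exact match of the gene symbol: Mb21d1 (the older symbol of cGAS), Tmem173 (the older symbol of STING), Tbk1, Trex1, Ifi203, Ifi204, Aim2 and Mnda. Each stood on 1 row, and all 8 passed the filter on low counts that left 12191 genes to test.

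RNA-seq gene counts came from 6 libraries of TC-1, a mouse line labelled as lung adenocarcinoma. Lung cells transformed with papillomavirus oncogenes and activated ras gave rise to it. In one group, 3 libraries came from untreated cells. In the other, 3 came from cells given 20 ng/ml recombinant murine interferon-gamma (IFN-gamma) for 72 h, and the groups are called untreated and IFN-gamma below. All libraries are of the same transformed line, and the labels do not say whether replicates were separate cultures. The p-values therefore describe the spread among these libraries, which may be technical.

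DNA in the cytosol is a sign of infection or damage. The enzyme cGAS binds it and makes the dinucleotide cGAMP, which activates STING in the endoplasmic reticulum. STING then moves to the Golgi and recruits the kinase TBK1, which phosphorylates the transcription factor IRF3 to start type I interferon genes. TREX1 is an exonuclease that removes DNA from the cytosol and so limits this signal. The PYHIN proteins, among them AIM2, IFI203, IFI204 and MNDA, carry a pyrin domain, a DNA-binding HIN domain or both. AIM2 binds DNA and assembles an inflammasome with the adaptor ASC and caspase-1, while mouse IFI204 has been linked to STING signalling.

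Library totals ranged from 7302687 to 10861336 counts. Levels below are CPM, counts scaled to a library of 1e6 with TMM factors, and they are not compared between genes because no length correction was made. Differences are log2 fold changes of IFN-gamma over untreated ± standard error from edgeR, with p adjusted over all 12191 genes and a threshold of 0.05. Of 12 lung epithelial markers, 9 were too low to test: the surfactant genes Sftpb and Sftpa1 had 0 counts in all 6 libraries, and Sftpc and Nkx2-1 had 1 count each. The keratin gene Krt19 was lower after IFN-gamma (-0.81 ± 0.20, adjusted p = 0.00299), from 14.1 ± 2.06 to 8.04 ± 1.51 CPM. Krt8 (-0.88 ± 0.65, adjusted p = 0.405) and Muc1 (1.06 ± 0.54, adjusted p = 0.193) did not pass. The 12 markers summed to between 17.3 and 19.8 CPM without IFN-gamma and between 9.81 and 12.4 CPM with it. Krt19 alone made up most of that sum, whose means were 18.5 and 11.4 CPM. The part of these markers in the results below was not tested. RNA per cell and the share of cells that respond cannot be told apart in these bulk libraries.

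Many PYHIN genes stand side by side in 1 cluster on mouse chromosome 1, and many of their promoters carried a shared short element, shown here because it is known from interferon-induced genes. RefSeq promoter windows of GRCm38.p6, from 250 bases before to 50 bases after a transcript start, were searched on both strands for the core of the interferon-stimulated response element (ISRE), GAAANNGAAA, and for the gamma-activated site (GAS), TTCNNNGAA. IRF-family factors bind the ISRE. In the stretches below, written 5′ to 3′ on the strand of the gene, capitals mark the ISRE core and 10 bases are given on each side.
Ifi203, chr1:173942508-173942537, minus strand: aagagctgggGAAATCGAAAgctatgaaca
Mnda (RefSeq Ifi211), chr1:173913064-173913093, minus strand: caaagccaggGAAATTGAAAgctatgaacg
Mndal, chr1:173880204-173880233, minus strand: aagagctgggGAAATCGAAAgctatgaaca
Ifi205, chr1:174031870-174031899, minus strand: ccaggccaggGAAATTGAAAgctatgaaca
Pydc3 (RefSeq Ifi208), chr1:173673597-173673626, plus strand: cgtctctgagGAAATCGAAAgctatgaacc
Pydc4 (RefSeq Ifi213), chr1:173599326-173599355, minus strand: cgtctctgagGAAATCGAAAgctatgaacc
AI607873 (RefSeq Ifi207), chr1:173741831-173741860, minus strand: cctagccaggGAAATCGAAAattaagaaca

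In these 7 stretches the core read GAAATCGAAA in 5 genes and GAAATTGAAA in Mnda and Ifi205. The same 9 bases, gctatgaac, followed the core in 6 of the 7, all except AI607873. The stretches show only cores read on the strand of the gene. On the other strand, a core stood from -54 to -45 bases from the second start listed for Mndal, and Ifi205 held one after its start. An ISRE core was found in 7 of the 10 PYHIN rows with a promoter window (70%), against 3.99% of all 27025 genes with a window. The printed stretches of Ifi203 and Mndal were identical, as were those of Pydc3 and Pydc4. These 7 are therefore not separate observations. Of the members, 6 had a window and 2 of these, Ifi203 and Mnda, held the core, at the second of the starts listed for Ifi203. The windows of Mb21d1, Tbk1, Trex1 and Aim2 held neither motif, which says only that these letters are not there. No GAS was found in a member's window, and the single one in the family was in Ifi202b, against 9.55% of all genes. The window of Ifi202b held no ISRE core, so the motifs could not overlap in any of these windows. Pyhin1 (RefSeq Ifi209), whose window held neither motif, rose by 3.21 on the log2 scale. The 7 genes that have the core rose by 2.08 to 5.69. The part of the core in these changes was not tested, and the Pyhin1 row may hold reads of another gene, as given below.

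**Figure D1:**
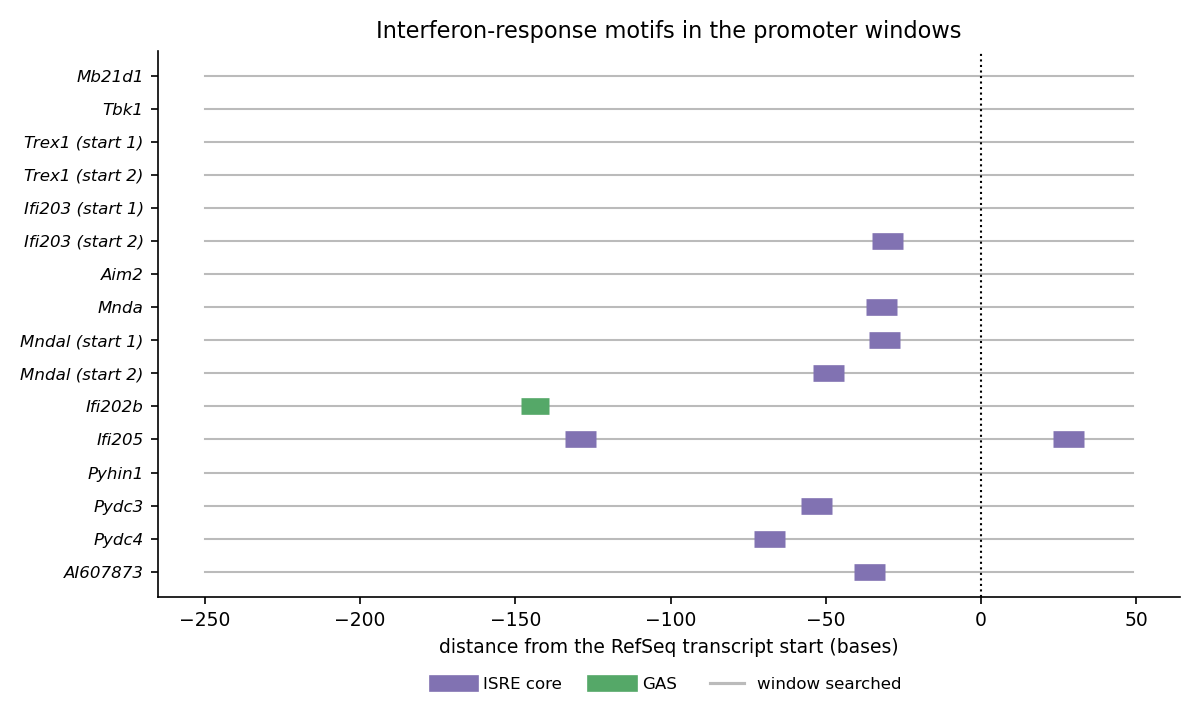
Position of each motif match (coloured blocks) in the promoter windows of the members and the PYHIN rows, with the distance from the RefSeq transcript start in bases on the horizontal axis and 1 line per window. Of the 7 PYHIN genes with an ISRE core, 6 have it between 73 and 26 bases before a start, and Ifi205 has it from 134 to 125 bases before the start and again after it.

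After IFN-gamma, the 3 PYHIN members Ifi203, Ifi204 and Mnda rose by 4-fold or more, Trex1 rose about 3-fold, and the sensor gene Mb21d1 and the kinase gene Tbk1 rose by under 2-fold. Tmem173 and Aim2 did not pass the threshold. Thus 6 of 8 members were called higher and 0 lower, while over all genes tested 9.88% were called higher and 7.56% lower. The members were chosen with earlier results of these data known, so these shares describe them and are not a test. The median log2 fold change of the members was 1.16, against -0.01 over all genes tested. In 7 of 8 members every IFN-gamma library lay above every untreated one, which held for 16.2% of all genes tested, and the exception was Aim2.

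**Figure D2:**
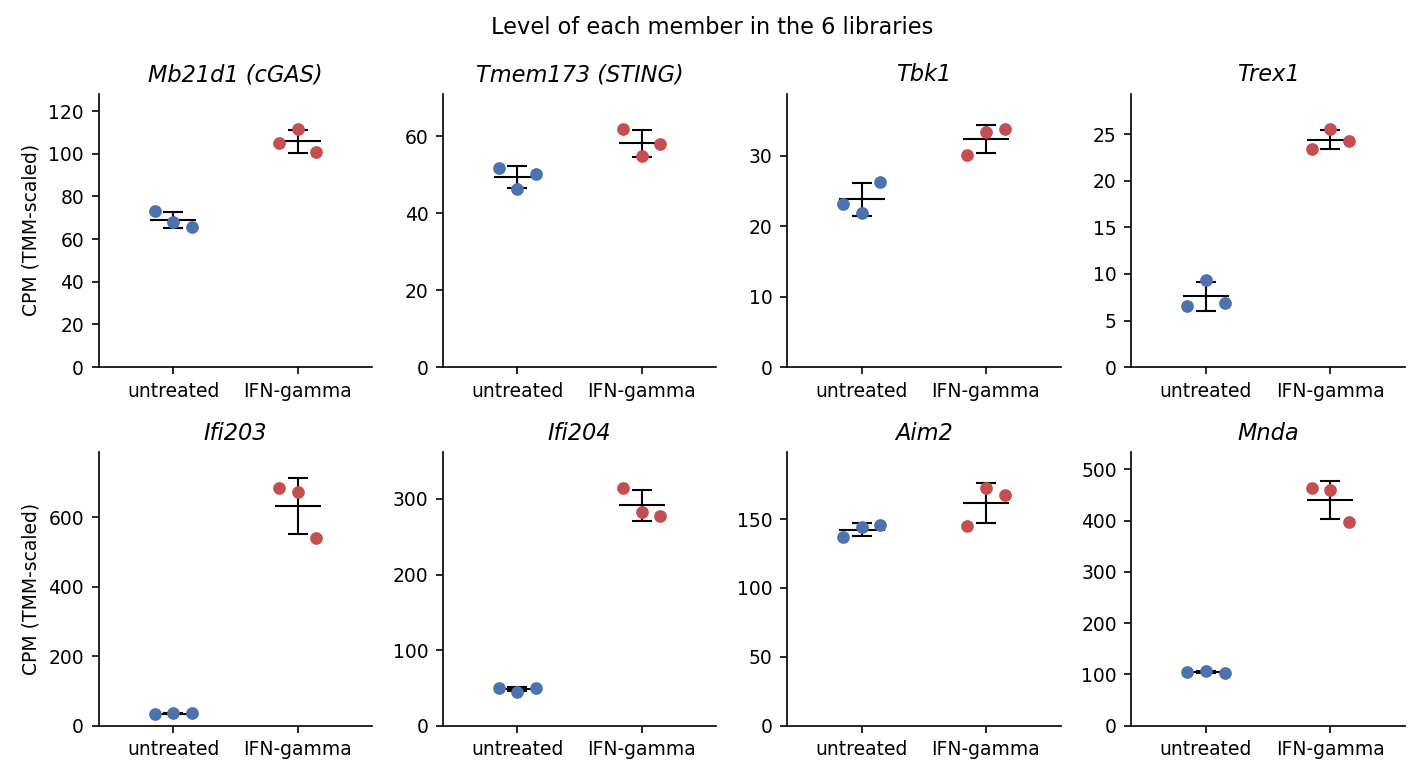
CPM of each member in every library, with untreated libraries in blue and IFN-gamma libraries in red (replicates 1, 2 and 3 from left to right), and mean ± SD (n = 3) in black on axes that start at 0. Ifi203, Ifi204, Mnda and Trex1 separate widely, Mb21d1, Tbk1 and Tmem173 separate by less, and the groups of Aim2 overlap.

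Mb21d1 encodes cGAS, the sensor that starts the pathway. Its level was 73.0, 68.3 and 65.5 CPM in untreated replicates 1, 2 and 3, and 105, 112 and 101 CPM in IFN-gamma replicates 1, 2 and 3. The groups did not overlap, and each IFN-gamma library stood well above the highest untreated one. Mb21d1 rose by 0.62 ± 0.08 (adjusted p = 1.8e-07), from a mean of 68.9 ± 3.81 to 106 ± 5.4 CPM (SD, n = 3).

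Tmem173 encodes STING, the membrane adaptor downstream of cGAS. It was measured at 51.8, 46.1 and 50.04 CPM in the untreated libraries and at 61.8, 54.7 and 57.9 CPM in the IFN-gamma libraries. The groups did not overlap, although the gap between them was narrower than the range within either. The log2 fold change was 0.24 ± 0.10 with a 95% interval from 0.04 to 0.44, and the adjusted p of 0.0958 did not pass the threshold. A change of more than 1.35-fold lay outside that interval.

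Tbk1 encodes the kinase that STING recruits. Its untreated libraries held 23.2, 21.8 and 26.3 CPM, and its IFN-gamma libraries 30.1, 33.3 and 33.8 CPM. The treated libraries were all higher, and the rise was 0.44 ± 0.13 (adjusted p = 0.0128). With untreated replicate 2, the lowest library, left out, the call did not hold (0.39, adjusted p = 0.0676).

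Trex1, the gene of the exonuclease that degrades cytosolic DNA, had 6.52, 9.36 and 6.89 CPM in the untreated libraries and 23.4, 25.5 and 24.3 CPM in the IFN-gamma libraries. Untreated replicate 2 was the highest of its group and still far below all treated libraries. Trex1 rose by 1.70 ± 0.17 (adjusted p = 2.8e-10), a fold change of 3.24 with a 95% interval from 2.54 to 4.14. That interval does not overlap the one of Mb21d1, from 1.37-fold to 1.72-fold. Of the 50-base windows of the longest coding Trex1 transcript in GENCODE M21, 95.6% also occur in annotated transcripts of Atrip, a DNA damage response gene. In the last 500 bases of that Trex1 transcript the share was 100%. How reads were divided between Trex1 and Atrip is not known, so their rows cannot be taken as separate measurements. The Atrip row ranged from 16.0 to 17.4 CPM without IFN-gamma and from 15.3 to 21.1 CPM with it (0.10 ± 0.16, adjusted p = 0.75). Whether the Trex1 row holds Atrip reads was not tested.

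**Figure D3:**
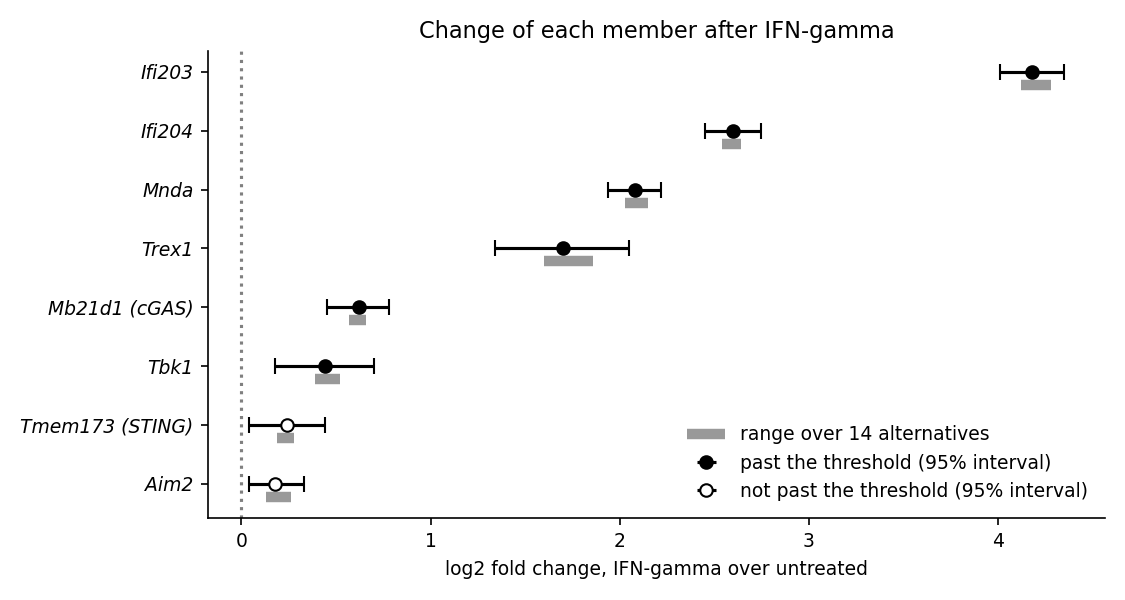
Log2 fold change of each member with its 95% interval (points and whiskers, filled where the adjusted p was under 0.05) and the range of the estimate over the 14 alternative settings (grey bars). The members spread from 0.18 (Aim2) to 4.18 (Ifi203), and no grey bar reaches 0.

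Ifi203, a PYHIN gene with few detailed functions assigned, had 34.2, 35.6 and 35.3 CPM in the untreated libraries and 685, 673 and 540 CPM in the IFN-gamma libraries. It had the highest rise of the members, 4.18 ± 0.08 (adjusted p = 3.1e-29), or 18.1-fold. Its change ranked 55 of 12191 genes from the top.

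Ifi204, whose mouse protein is often set beside human IFI16, had 49.2, 44.9 and 50.04 CPM in the untreated and 315, 283 and 277 CPM in the IFN-gamma libraries. Mnda, listed in RefSeq as Ifi211, had 104, 106 and 102 CPM in the untreated and 464, 460 and 396 CPM in the IFN-gamma libraries. In both genes the lowest treated library was more than 3 times the highest untreated one. Ifi204 rose by 2.60 ± 0.08 (adjusted p = 3.1e-28) and Mnda by 2.08 ± 0.07 (adjusted p = 1.1e-26).

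Aim2, the inflammasome sensor of the family, had 137, 145 and 146 CPM in the untreated and 145, 173 and 167 CPM in the IFN-gamma libraries. IFN-gamma replicate 1 lay within the untreated range, and the other treated libraries lay above it. The log2 fold change was 0.18 ± 0.07 with a 95% interval from 0.04 to 0.33, and the adjusted p of 0.0756 did not pass. Without IFN-gamma replicate 1, Aim2 was higher by 0.26 (adjusted p = 0.0165). Its interval lies far from that of Mnda, from 1.94 to 2.22, which was the smallest change among the PYHIN genes that passed.

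The wider PYHIN family was then read from a list of 20 symbols, of which 12 had a row and 10 could be tested. The list held older and newer names of the same gene, such as Mnda and Ifi211. A symbol without a row is therefore not always a missing gene. Of these 10, 9 were higher and 0 lower, with a median log2 fold change of 3.25 against -0.01 over all genes tested. The shares over all genes tested were 9.88% higher and 7.56% lower. This list, too, was chosen with earlier results of these data known. Aim2 was the only tested row of the family that did not pass. It stands at one end of the family's run of rows in the table, and Ifi205 at the other end rose.

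Mndal had 15.6, 11.7 and 16.2 CPM in the untreated and 220, 221 and 182 CPM in the IFN-gamma libraries, a rise of 3.83 ± 0.10. Ifi205 had 34.5, 36.1 and 34.5 CPM in the untreated and 170, 164 and 147 CPM in the IFN-gamma libraries, a rise of 2.20 ± 0.09. AI607873 went from between 4.49 and 4.81 CPM to between 43.9 and 49.1 CPM, a rise of 3.30 ± 0.16. All of these changes had an adjusted p of at most 7.3e-21, with no overlap between groups. Pyhin1 was lower in level, with 2.46, 2.17 and 0.84 CPM in the untreated and 20.0, 15.8 and 14.1 CPM in the IFN-gamma libraries, and rose by 3.21 ± 0.28 (adjusted p = 2.2e-12).

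Pydc3 and Pydc4 were close to silent in untreated cells. Pydc3 had 0, 3 and 1 counts in the untreated libraries and 121, 71 and 54 in the IFN-gamma libraries, and rose by 5.69 ± 0.53 (adjusted p = 1.9e-11). Without untreated replicate 2, which held 3 of its 4 untreated counts, the ratio of the groups was 165 with an exact 95% interval from 29.4 to 6556. Without untreated replicate 1 it was 37.0, with an interval from 14.3 to 137. Pydc4 had 0, 0 and 5 counts in the untreated libraries and 57, 48 and 25 in the IFN-gamma libraries, and rose by 4.50 ± 0.65 (adjusted p = 8.8e-07). All its untreated counts came from replicate 3. With that library left out, and 3 counts over the untreated group taken as a floor, Pydc4 was at least 25.7-fold higher. Without untreated replicate 1 the ratio was 15.6 (exact 95% interval from 6.53 to 48.98). These intervals and floors cover counting error only.

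The remaining PYHIN rows were too low to test. BC094916, which matched no RefSeq gene, had 1 count in the untreated group and 4 in each IFN-gamma library, a ratio of 11.2 with an exact 95% interval from 1.66 to 479. That count came from untreated replicate 1, and against the same floor the other libraries gave a rise of at least 2.41-fold. Ifi202b had 0 counts in all 6 libraries.

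**Figure D4:**
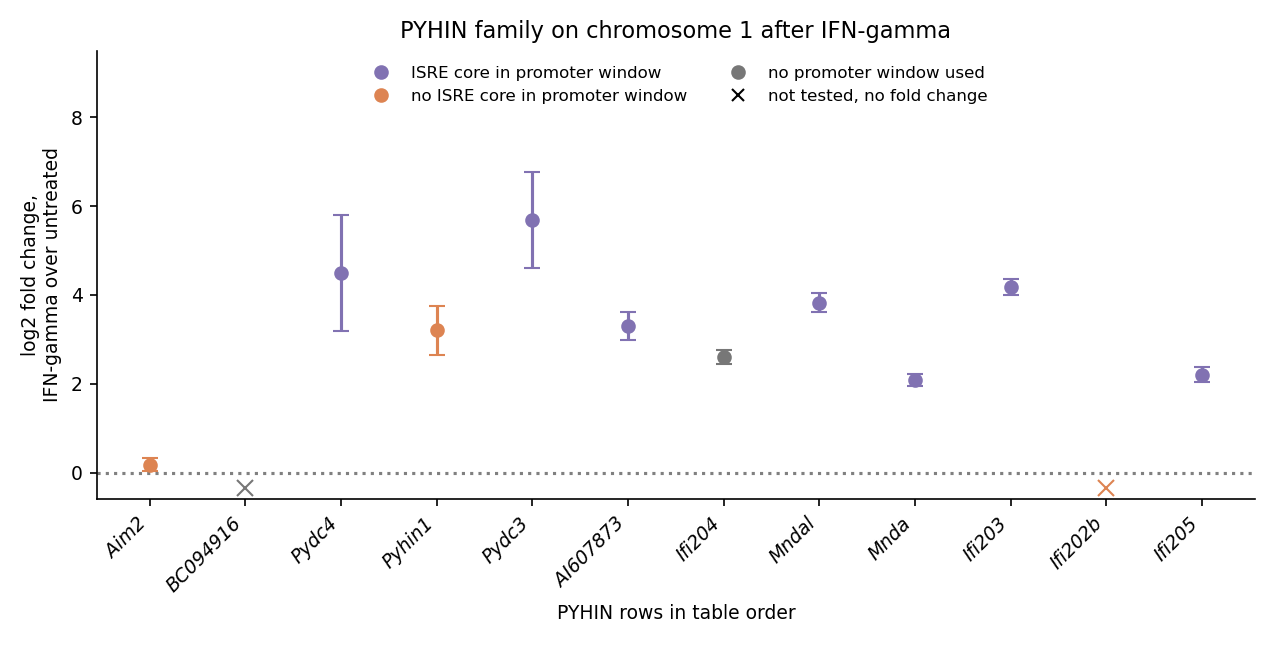
Log2 fold change with 95% interval of the PYHIN rows in the order of the table, coloured by whether a promoter window of the gene held an ISRE core. The 9 rows called higher lie between 2.08 (Mnda) and 5.69 (Pydc3), Aim2 lies at 0.18, and crosses mark the rows BC094916 and Ifi202b that could not be tested.

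Several PYHIN genes are near copies of each other, and how reads were shared out between them is uncertain. For Mnda, 72.9% of the 50-base windows of its longest coding transcript also occur in another gene, mostly Ifi205 and Ifi204. The share was 30.2% for Ifi204, 27.2% for Mndal, 49.6% for Ifi205 and 10.7% for Ifi203, against 0.789% for Aim2. It was 35.1% for Pyhin1, 25.9% for Pydc3, 27.9% for Pydc4 and 7.17% for AI607873. Since the counts may come from a 3' end kit, the last 500 bases were also read alone. There the share was 77.4% for Mnda, 79.2% for Ifi205 and 63.4% for Pyhin1, but 22% for Mndal, 12.6% for Pydc3 and for Pydc4, 2.22% for Ifi204, 1.77% for Aim2, and 0% for Ifi203 and AI607873. The summed level of the family does not depend on how the counted reads were divided within it. Reads shared with genes outside the summed rows can still change that sum. Without Aim2, the other 11 rows summed to 245, 242 and 244 CPM in the untreated and 1940, 1880 and 1610 CPM in the IFN-gamma libraries, 7.43-fold higher on the means. Among the treated libraries, replicate 3 was the lowest in 9 of the 9 PYHIN rows that rose, as it was in 47.1% of the 1204 genes called higher over the whole table. The rows share reads, so these are not 9 separate observations.

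Many PYHIN genes are known mainly from myeloid cells, so a list of myeloid markers was read beside them. Of 15 markers in the table, 3 could be tested, and 2 of these, Mpeg1 and Cd68, were higher, against 9.88% of all genes tested. Aif1 had 0 counts in all 6 libraries. The leukocyte gene Ptprc had 0 counts in the untreated and 2 in the IFN-gamma group, and the macrophage genes Adgre1 and Lyz2 had 0 and 1. All 15 markers summed to between 41.5 and 49.1 CPM in the untreated and between 74.8 and 82.9 CPM in the IFN-gamma libraries. Without Cd68, Cd14 and Mpeg1, the 12 other markers summed to between 0.748 and 3.12 CPM without IFN-gamma and between 0.837 and 1.66 CPM with it. Cd68 was higher by 0.73 ± 0.23 (adjusted p = 0.0229). That call did not hold with untreated replicate 1 or 2 or IFN-gamma replicate 2 left out (adjusted p from 0.0615 to 0.156), nor with DESeq2 (adjusted p = 0.0583). Cd14 had 0.05 ± 0.12 (adjusted p = 0.838). Mpeg1, a pore-forming protein gene of macrophages, had 2 counts in the untreated libraries and from 209 to 303 in the IFN-gamma libraries, and rose by 8.23 ± 0.38 (adjusted p = 3.1e-21). The ratio of the groups was 356, with an exact 95% interval from 98.1 to 2940. Both untreated counts came from replicate 1, and against the floor of 3 counts the other libraries gave a rise of at least 153-fold, while without untreated replicate 3 the ratio was 226. The part of myeloid cells in the PYHIN change was not tested: Mpeg1 and Cd68 rose with the PYHIN genes, while Ptprc, Adgre1, Lyz2 and Aif1 were at or near 0.

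Other genes of the pathway were read by role. The counts of each list below stand against 9.88% called higher and 7.56% called lower over all genes tested. Among 18 further genes whose products bind DNA or were proposed as DNA sensors, 1 was higher and 2 were lower, with a median log2 fold change of 0.01. Zbp1, which senses nucleic acids in the Z conformation and can start necroptosis, ranged from 5.95 to 8.82 CPM without IFN-gamma and from 235 to 268 CPM with it. It rose by 5.01 ± 0.11 (adjusted p = 9.5e-33), a larger change than that of any member. Xrcc5, the Ku80 subunit of the DNA end-binding complex, fell by 0.47 ± 0.10 (adjusted p = 0.000557). Lrrfip1 was lower, with -0.21 ± 0.06 (adjusted p = 0.00943), which did not hold when untreated replicate 3 was left out (adjusted p = 0.0675). Ddx41, a helicase proposed to hand DNA to STING, had 0.31 ± 0.15 (adjusted p = 0.161), and Mre11a had 0.01 ± 0.11 (adjusted p = 0.979).

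Around the kinase, 6 of 10 genes were higher and 0 lower, with a median of 0.34. Irf7, a transcription factor that amplifies type I interferon, rose by 3.91 ± 0.12 from 7.97 ± 0.264 to 120 ± 15.2 CPM (adjusted p = 1.9e-27). Ikbke, the kinase related to TBK1, rose by 0.93 ± 0.28 (adjusted p = 0.0155), and the autophagy receptor Optn, which TBK1 phosphorylates, by 0.78 ± 0.25 (adjusted p = 0.0231). Ikbkg, the regulatory subunit NEMO, rose by 0.44 ± 0.15, the adaptor Traf3 by 0.39 ± 0.12 and the TBK1-binding Azi2 by 0.30 ± 0.09 (adjusted p from 0.0172 to 0.0293). Of these, the Irf7 call held in every alternative, and each of the other 5 was lost in at least 2 of 14. Leaving out any single library except IFN-gamma replicate 3 left 3 genes of the list higher.

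Irf3, the factor that TBK1 activates in this pathway, had 19.9, 19.4 and 21.4 CPM in the untreated and 21.8, 17.5 and 18.6 CPM in the IFN-gamma libraries. The groups overlapped, with a log2 fold change of -0.07 ± 0.15 (adjusted p = 0.819) and a 95% interval from -0.37 to 0.23. The TBK1 adaptor genes Tank and Tbkbp1 had 0.20 ± 0.13 and -0.06 ± 0.18 (adjusted p = 0.33 and 0.886).

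Of 18 tested genes for the trafficking, modification and turnover of STING, 2 were higher and 0 lower, with a median of 0.04. Over all genes tested, 9.88% were called higher and 7.56% lower. Usp18, an ISG15 protease that has also been tied to STING ubiquitination, rose by 3.38 ± 0.12 (adjusted p = 1.3e-25). Trim56, a ubiquitin ligase reported to act on cGAS and STING, rose by 1.06 ± 0.09 from 65.7 ± 6.55 to 137 ± 16.4 CPM (adjusted p = 1.5e-12). The coat protein gene Sec24c, the transport gene Surf4 and the calcium sensor gene Stim1 were not called. Insig1, an endoplasmic reticulum protein of sterol control, did not pass (-0.35 ± 0.13, adjusted p = 0.0935), and untreated replicate 3 held 96.4 CPM against 61.5 and 68.7 CPM in the other untreated libraries. Without that library the value was -0.13 (adjusted p = 0.524), and without untreated replicate 1, the lowest of its group, it passed as lower (-0.48, adjusted p = 0.00454).

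Among 10 tested nucleases and other genes that limit self nucleic acids, apart from Trex1, 2 were higher and 0 lower, with a median of -0.12. Samhd1, which breaks down deoxynucleotides, rose by 2.46 ± 0.07 from 61.3 ± 2.45 to 338 ± 7.3 CPM (adjusted p = 9.2e-29). Adar, an RNA-editing enzyme, rose 2.83-fold from 38.4 ± 4.53 to 109 ± 3.78 CPM (adjusted p = 7.2e-17). Like Trex1, both are genes in which mutations cause Aicardi-Goutières syndrome in humans. The 3 RNase H2 subunit genes, of the same disease group, were not called: Rnaseh2a had -0.22 ± 0.11, Rnaseh2b 0.33 ± 0.14 and Rnaseh2c -0.22 ± 0.10 (adjusted p from 0.0983 to 0.182). Without IFN-gamma replicate 3, Rnaseh2b passed as higher (0.45, adjusted p = 0.0189) and Rnaseh2a as lower (-0.33, adjusted p = 0.0418), which made 3 genes of the list higher and 1 lower. The lysosomal DNase gene Dnase2a had -0.01 ± 0.15 (adjusted p = 0.97), and Enpp1, which degrades cGAMP outside cells, had -0.82 ± 0.56 (adjusted p = 0.357) at under 3 CPM in every library.

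Of 7 tested genes for cGAMP transport, 0 were higher and 1 was lower, with a median of -0.02. Gja1, the gap junction protein through which cGAMP can pass to neighbouring cells, fell by 0.37 ± 0.07 from 193 ± 5.06 to 149 ± 1.6 CPM (adjusted p = 3.5e-05). The channel subunit gene Lrrc8a had -0.02 ± 0.10 and the exporter gene Abcc1 0.04 ± 0.08. Slc46a2 had 0 counts in all libraries.

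The partners of Aim2 in the inflammasome were unevenly present. Of 10 genes, 5 could be tested, and 2 were higher and 0 lower, with a median of 0.74. Gsdmd, the pore protein of pyroptosis, rose by 1.17 ± 0.11 (adjusted p = 6.6e-11) and the inflammatory caspase gene Casp4 by 1.05 ± 0.11 (adjusted p = 3.9e-10). Casp1, the caspase that AIM2 activates, had 1 count in the untreated and 5 in the IFN-gamma group, and its substrate Il1b had 0 counts in all 6 libraries. Mefv, which encodes pyrin, also had 0 counts in all libraries, and Nlrc4 had 0 untreated and 3 IFN-gamma counts. Pycard, which encodes the adaptor ASC, had 2.25, 6.65 and 7.73 CPM in the untreated and 9.40, 8.25 and 9.95 CPM in the IFN-gamma libraries. It did not pass (0.74 ± 0.29, adjusted p = 0.0817), passed without a filter (adjusted p = 0.0272) and without untreated replicate 3 (1.09, adjusted p = 0.0152), and had 0.35 (adjusted p = 0.417) without untreated replicate 1, its lowest library.

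The interferon genes at the end of the pathway were near or below detection. Ifnb1, the interferon-beta gene that IRF3 induces, was not seen in the untreated libraries (0 counts each) and had 1, 3 and 0 counts in the treated replicates 1, 2 and 3. Ifna1, Ifna2, Ifna4, Ifna5 and Ifnab had 0 counts in all libraries. Summed with Ifne and Ifnk, the list had 0 counts in the untreated and 7 in the IFN-gamma group. A level of up to 0.114 CPM in the untreated group, and up to 0.107 CPM in the treated one, can give 0 counts, so lower levels were not detectable at this depth, at the end of 72 h.

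**Figure D5:**
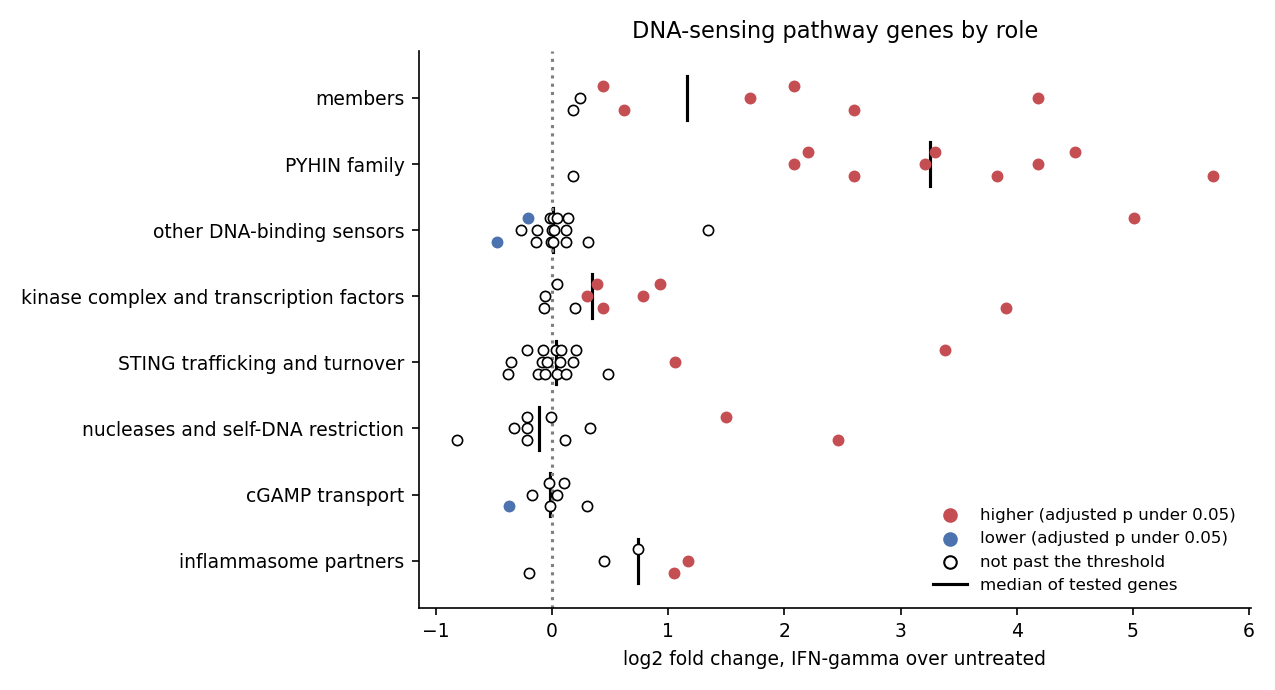
Log2 fold change of every tested gene by role, with genes called higher in red, lower in blue and not past the threshold as open circles, and the list median as a black line. The PYHIN family lies furthest to the right with a median of 3.25, while the medians of the other DNA-binding sensors, STING trafficking and cGAMP transport lists lie between -0.02 and 0.04.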

How the data were processed

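Members and gene lists were chosen with earlier results of these data known. Raw counts per gene row, as deposited by the authors and named so per the file headers, held whole numbers. The log2 values deposited by the authors are normalized per the file headers and served only in an alternative. The submitters' processing notes name Bowtie2, edgeR and hg19, a human build, for these mouse samples, and the labels name a stranded kit and a 3' end kit for every sample without saying which gave the counts. The counter is not given in the sources used here.

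All rows were fitted together with edgeR 4.0.16 (R 4.3.3), using its robust quasi-likelihood F test after filterByExpr and TMM scaling, with Benjamini-Hochberg adjustment and no covariate. Standard errors were derived from the F statistic, and 95% intervals from the t distribution. CPM were scaled to 1e6 per TMM-adjusted library. Ratios with few counts have exact Clopper-Pearson intervals. Reads had no stated molecular identifiers, so PCR copies may be counted more than once. With 3 libraries against 3, an exact permutation test of a single gene cannot go below 0.1, so none was run. DESeq2 1.42.0 and limma 3.58.1 served as alternatives.

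Named genes were all members, the PYHIN rows, called list genes, list genes at 0 counts and, per called member, the 2 closest profiles. Uncalled genes and Atrip were named after their values were seen. Promoter windows came from RefSeq (GRCm38.p6) and shared windows from GENCODE M21 transcripts. Of the 8 members, 6 had a promoter window. Some items are not reported here.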

Additional observations from a re-analysis of the deposited data

How the results depend on the processing

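Across 14 alternatives (8 in all libraries, 6 leaving out 1 library each), no log2 fold change of a member changed sign. The calls of Mb21d1, Trex1, Ifi203, Ifi204 and Mnda held in all 14, and Tmem173 passed in 0 (adjusted p from 0.0769 to 0.297). With 1 library left out, Tbk1 ranged from 0.39 to 0.52 and Aim2 from 0.13 to 0.26, with the calls given above. Leaving out 1 library, between 3 and 6 kinase-complex genes were higher, between 1 and 2 other sensors lower, between 0 and 1 STING trafficking genes lower, and between 2 and 3 nuclease genes higher and between 0 and 1 lower. One STING trafficking gene, Insig1, was lower with upper-quartile factors, with no filter, without the robust fit and with the replicate block (1 in each), and 1 nuclease gene, Rnaseh2c, with upper-quartile factors (adjusted p = 0.0418). Leaving out 1 library gave between 2 and 3 inflammasome genes higher. With no filter, 4 inflammasome genes were higher, adding Nlrp3 and Pycard. Of all calls, 56.6% were higher, against 41.6% with upper-quartile factors and 44.5% with total counts alone. Deviations of same-numbered libraries of the groups had r from -0.00139 to 0.0411, and those of differently numbered ones from -0.0278 to 0.0276. With 3 libraries per group, such values cannot show whether same-numbered libraries were paired. With the replicate block 2226 genes were called against 2126, no call of a member changed, and Pycard passed (0.83, adjusted p = 0.0327). At this depth, genes under about 0.1 CPM cannot be told from 0.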

Other observations

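Genes with the profile most like that of each called member were found by the root mean square difference of log2 CPM over the 6 libraries, each gene centred on its untreated mean. With 2 groups of 3, this measure mostly matches genes by the size of their change. Closest to Trex1 were Eif2ak2, the kinase PKR that senses double-stranded RNA (difference 0.12, log2 fold change 1.62 ± 0.10), and Irf9, the DNA-binding part of the factor ISGF3 (0.13, 1.69 ± 0.07). Closest to Ifi203 were Trim30a (0.11, 4.20 ± 0.09) and Irg1, which makes itaconate (0.20, 4.14 ± 0.14). Mnda lay closest to Ifi205 (0.083), another PYHIN gene with which it shares sequence, and to Znfx1 (0.085, 2.04 ± 0.08). Ifi204 lay closest to the MHC class I genes H2-T9 (0.079) and H2-T22 (0.081). Closest to Mb21d1 were the helicase gene Ddx21 (0.032, 0.59 ± 0.06) and the sialyltransferase gene St3gal1 (0.033, 0.58 ± 0.07). Closest to Tbk1 were Farsa, a subunit of phenylalanyl-tRNA synthetase (0.014, 0.45 ± 0.07), and Syt7 (0.058, 0.43 ± 0.09).

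Rnf5, a ubiquitin ligase that acts on STING in human cells, had 43.7, 42.5 and 47.2 CPM in the untreated libraries and 40.5, 15.7 and 46.3 CPM in the IFN-gamma libraries. IFN-gamma replicate 2 stood apart from the 5 other libraries, with a log2 fold change of -0.38 ± 0.42 (adjusted p = 0.646) over all libraries and -0.04 ± 0.12 (adjusted p = 0.891) without it. Nlrp3, an inflammasome sensor too low to test in the main fit, had 4, 2 and 1 counts in the untreated and 25, 6 and 10 counts in the IFN-gamma libraries. It passed as higher with no filter, without untreated replicate 1 and without IFN-gamma replicate 2 (adjusted p = 0.0456, 0.0388 and 0.0152). It did not pass with DESeq2, or without untreated replicate 2 or 3 (adjusted p = 0.0773, 0.0674 and 0.139).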
